A study of Homo sapiens with 8 samples.

Results

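The transcriptional response to H2O2 was compared between 22RV1 cells with PAGE4 and 22RV1 cells with the empty vector, using 4 of the 8 libraries of the series, 1 library for each condition. For each gene the response was the log2 ratio of normalized counts in H2O2 over PBS, taken once in vector cells and once in PAGE4 cells, and the quantity studied was the difference of the 2 responses (PAGE4 minus vector, log2). It was read in the 14609 of 58828 genes whose mean over the 4 libraries was at least 50 normalized counts. A response or a difference over 1.5-fold was called, and each difference is given with its 95% interval of counting error. A condition with 1 library has no replicate, so no p-value exists for 22RV1 alone, and the intervals cover counting error only.

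22RV1 is a human prostate carcinoma line grown from a xenograft, and it expresses the androgen receptor. All cells carried the lentiviral doxycycline-inducible plasmid pLVX-TetOne-Puro, either empty (vector) or with the PAGE4 open reading frame and an N-terminal HA tag (PAGE4), had survived puromycin, and had received doxycycline. Each construct was 1 transduced population, and no single clones were described for it. H2O2 was added at 200 mM, the concentration the labels state, and PBS was the control, each for 12 h before RNA was taken. DU145, an androgen receptor-negative prostate carcinoma line handled in the same way, gave the other 4 libraries.

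The total count was 43310401 in vector PBS, 34383513 in vector H2O2, 39220010 in PAGE4 PBS and 25482984 in PAGE4 H2O2, so the library with the fewest reads was the treated PAGE4 one. PAGE4 (chrX:49829260-49834264, GRCh38) had raw counts of 1, 0, 1489 and 1179 in that order. Its normalized count was 1387 in PAGE4 PBS and 1552 in PAGE4 H2O2, the latter at least 536-fold higher than the floor of 3 counts in the vector H2O2 library. Of the 12 luminal markers of 22RV1, 11 had a mean of at least 50, and their summed normalized count was 176631, 124806, 168492 and 126605 in the same order. The 16 markers of DU145 cells summed to 185910 and 88042 in the vector libraries and to 24244 and 25794 in the PAGE4 libraries. FLNA, the actin cross-linker filamin A, made most of that gap, with normalized counts from 168870 to 71722 in vector cells and from 10707 to 9840.3 in PAGE4 cells. Of these 16 markers 8 had a mean of at least 50, among them CD44, EGFR, LGALS1 and VIM, while AXL, PLAU and TP63 stayed below 12 normalized counts in all 4 libraries, and 12 of 14 markers of fibroblasts, endothelium and leukocytes had a mean under 50. The vector and PAGE4 populations were thus unlike before H2O2 was added, and the part of that in the differences below was not tested.

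H2O2 oxidizes cysteines, membranes and DNA. Cells answer on several fronts: the mitogen-activated protein kinases JNK, p38 and ERK switch on immediate early genes such as FOS, JUN and EGR1, HSF1 switches on heat shock proteins, NRF2 switches on glutathione and thioredoxin enzymes, p53 switches on cell cycle arrest and death genes, and ATF4 switches on amino acid and stress genes. PAGE4 is a small, disordered cancer/testis antigen of the prostate that the kinases HIPK1 and CLK2 phosphorylate and that acts on JUN-driven transcription. It is not itself a sequence-specific transcription factor.

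H2O2 moved fewer genes past 1.5-fold when PAGE4 was present. In vector cells 1845 genes were over 1.5-fold higher after H2O2 (12.6% of those tested) and 2445 were lower (16.7%). In PAGE4 cells 1304 were higher (8.93%) and 1775 lower (12.2%). Which direction held more genes depends on the scaling: divided by total counts, 2423 were higher and 1956 lower with vector, and 1838 higher and 1259 lower with PAGE4. The difference of the 2 responses was over 1.5-fold higher, toward PAGE4 cells, in 1017 genes (6.96%) and over 1.5-fold lower in 759 (5.2%). These percentages are the background for each gene list below. The median difference over all genes was -0.01, and the SD of the response over genes was 0.681 in vector cells and 0.564 in PAGE4 cells. In DU145, where the same SDs were 0.710 and 0.717, no such narrowing was seen. Among 22RV1 genes with a mean of at least 1000, where counting error is small, the SDs were 0.531 and 0.432.

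The narrowing ran in both directions. The 1845 genes higher in vector cells had a median response of 0.86 with vector and 0.57 with PAGE4, and 472 of them lay over 1.5-fold lower in PAGE4 cells against 47 over 1.5-fold higher. The 2445 genes lower in vector cells had medians of -0.89 and -0.63, with 609 higher in PAGE4 cells and 30 lower. A group chosen by its vector response is bound to look weaker in the other cells through counting error alone, so the same was done from the other side. The 1304 genes higher in PAGE4 cells had medians of 0.86 with vector and 0.86 with PAGE4, and the 1775 genes lower in PAGE4 cells had medians of -0.88 and -0.84. Of the 1304, 248 lay over 1.5-fold higher in PAGE4 cells and 155 lower. Of the 1775, 168 lay over 1.5-fold higher and 196 lower. By their medians, genes chosen in PAGE4 cells were therefore about as strong in vector cells, while genes chosen in vector cells were weaker in PAGE4 cells. The 139 genes over 4-fold higher in vector cells, again chosen by their vector response, had medians of 2.61 and 1.83. Of these, 95 lay over 1.5-fold lower in PAGE4 cells. The 69 genes over 4-fold higher in PAGE4 cells had medians of 2.86 with vector and 2.58 with PAGE4. Of those, 20 lay over 1.5-fold higher in PAGE4 cells and 24 lower. The 45 genes over 4-fold lower in PAGE4 cells had medians of -1.98 with vector and -2.26 with PAGE4. In that group 10 lay over 1.5-fold lower and 0 higher, so it showed no narrowing. Responses over 1.5-fold in opposite directions were rare, with 19 genes higher in vector and lower in PAGE4 cells and 18 the other way round.

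**Figure D1:**
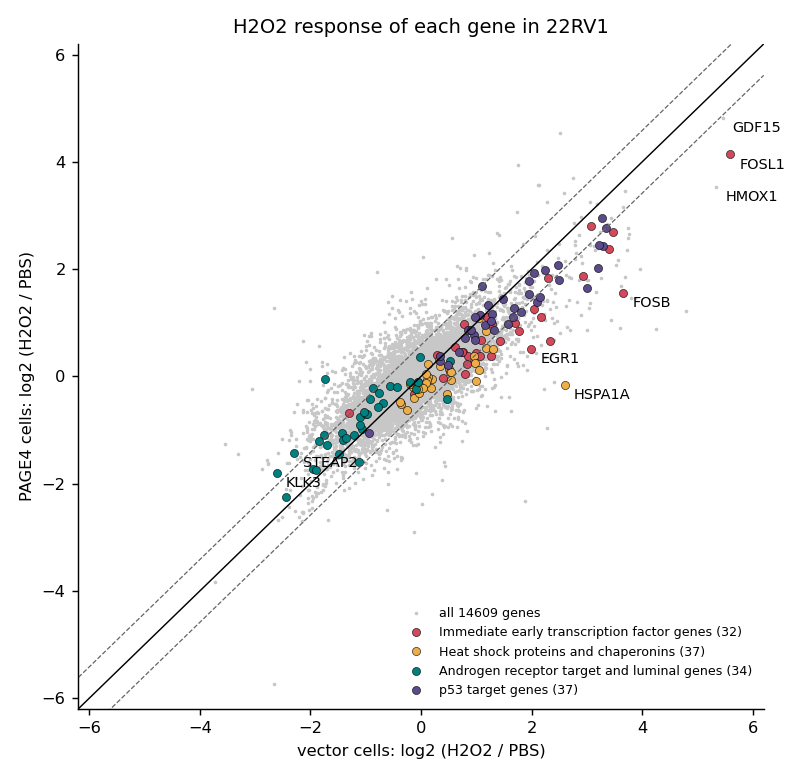
H2O2 response of each gene in 22RV1, log2 of normalized count in H2O2 over PBS, in vector cells (horizontal) and PAGE4 cells (vertical). Each grey point is 1 of 14609 genes, coloured points are 4 gene lists, the solid line marks equal responses and the dashed lines a 1.5-fold difference, and 3 genes lie outside the axes. Immediate early, heat shock and p53 target genes lie mostly under the solid line, and androgen receptor targets mostly above it.

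The 2 constructs differed more widely after H2O2 than before it. In PBS, 507 genes were over 1.5-fold higher in PAGE4 than in vector cells (3.47%) and 708 lower (4.85%), and in H2O2 971 were higher (6.65%) and 799 lower (5.47%). Among the 759 genes with a lower response in PAGE4 cells, 352 were lower in PAGE4 cells in the H2O2 libraries and 174 were already higher in PAGE4 cells in the PBS libraries. Among the 1017 with a higher response, 463 were higher in the H2O2 libraries and 316 were already lower in PBS. A difference of the 2 responses therefore came from the treated libraries for some genes and from the untreated ones for others, and both levels are given for the genes below. In each pair of normalized counts below, the PBS library comes first and the H2O2 library second.

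The inducible chaperone genes HSPA6, HSPA1A and DNAJB1 were higher after H2O2 in vector cells, and far less so or not at all with PAGE4. HSPA6, the strictly inducible member of the HSP70 chaperones, had the lowest difference among genes with a mean of at least 200. Its normalized counts went from 6.59 to 2079 in vector cells and from 3.72 to 26.3 in PAGE4 cells, a difference of -5.53 (-7.29 to -3.77). HSPA1A, the main inducible HSP70, went from 691 to 4197 in vector cells and from 1022 to 915 in PAGE4 cells, with a difference of -2.76 (-2.94 to -2.59). DNAJB1, the HSP40 partner that hands clients to HSP70, went from 2897 to 5768 in vector cells and from 2948 to 2778 in PAGE4 cells, with a difference of -1.08 (-1.18 to -0.98). In all 3 genes the vector H2O2 library was the single high one, and HSPA1A and DNAJB1 stayed near their PBS level in PAGE4 cells. HSPA6 has a near-identical pseudogene copy, and HSPA1A and HSPA1B are near-identical to each other, so the share of reads given to each is uncertain.

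The stretch of 250 bases before the annotated start of these genes is shown because all 3 hold heat shock elements, the sites that HSF1 binds (RefSeq, GRCh38.p14, 5′ to 3′ on the gene's strand). Capitals mark matches to GAANNTTC or TTCNNGAA, each of which reads the same on both strands, and overlapping matches run together.
HSPA6, chr1:161524290-161524539, plus strand: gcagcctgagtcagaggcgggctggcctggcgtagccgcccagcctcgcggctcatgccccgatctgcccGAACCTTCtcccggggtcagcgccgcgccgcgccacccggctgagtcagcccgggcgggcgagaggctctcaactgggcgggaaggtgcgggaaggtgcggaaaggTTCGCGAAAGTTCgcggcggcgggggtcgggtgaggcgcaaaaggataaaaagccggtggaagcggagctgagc
HSPA1A, chr6:31815293-31815542, plus strand: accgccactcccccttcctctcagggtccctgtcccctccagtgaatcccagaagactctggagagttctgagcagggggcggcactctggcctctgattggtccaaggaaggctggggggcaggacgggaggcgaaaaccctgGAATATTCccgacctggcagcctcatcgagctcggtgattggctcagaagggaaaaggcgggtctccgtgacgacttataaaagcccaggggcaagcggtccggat
DNAJB1, chr19:14518398-14518647, minus strand, 1 of 3 annotated starts: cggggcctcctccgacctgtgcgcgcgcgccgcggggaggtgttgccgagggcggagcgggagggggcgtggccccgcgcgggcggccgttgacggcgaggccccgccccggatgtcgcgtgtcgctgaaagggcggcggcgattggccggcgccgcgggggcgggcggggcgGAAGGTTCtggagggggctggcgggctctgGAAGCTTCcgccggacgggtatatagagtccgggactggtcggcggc
HSPA6 held 3 matches, starting 180, 74 and 69 bases before the start, the last pair overlapping. HSPA1A held 1 match, starting 106 bases before the start, and DNAJB1 held 2, starting 77 and 47 bases before it. The start of DNAJB1 shown was taken because it held matches, and its other annotated starts held none. Such a match stood before at least 1 annotated start in 3813 of all 27305 genes with a promoter in the table and in 19 of the 34 heat shock genes that could be matched. Among the genes tested, the share was 11.6% of the 10058 that could be matched. Only 57.3% of the 759 genes with a lower response in PAGE4 cells could be matched, and 14.9% of those held a heat shock element. For the 1017 genes with a higher response, 50.5% could be matched and 13.8% of those held one. With so many genes unmatched, these shares are void as a comparison.

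Of the 37 heat shock and chaperonin genes tested, 8 had a difference over 1.5-fold lower and 0 higher, and 34 lay below 0. Their median response was 0.13 with vector and -0.09 with PAGE4, and their median difference was -0.25. In vector cells 9 of the 37 were over 1.5-fold higher after H2O2, against 2 in PAGE4 cells, so most of the list did not respond past 1.5-fold. HSPA6 is not on this list. HSPA1B went from 2538 to 5244 in vector cells and from 2924 to 3178 in PAGE4 cells. SERPINH1, the collagen chaperone HSP47, went from 957 to 2354 in vector cells and from 798 to 1139.7 in PAGE4 cells, a difference of -0.78 (-0.95 to -0.61). DNAJA4, another HSP40, went from 786 to 1788 in vector cells and from 1091 to 1579 in PAGE4 cells, a difference of -0.65 (-0.81 to -0.49). The 3 genes were higher after H2O2 in both constructs, and more so in vector cells. HSPA4L had the highest difference of the list at 0.11 (0.002 to 0.21), next to the constitutive HSPA8 at 0.06 (0.04 to 0.08), which was slightly lower after H2O2 in both. Before H2O2 the list was slightly higher in PAGE4 cells (median log2 0.15), and after H2O2 lower (-0.12).

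**Figure D2:**
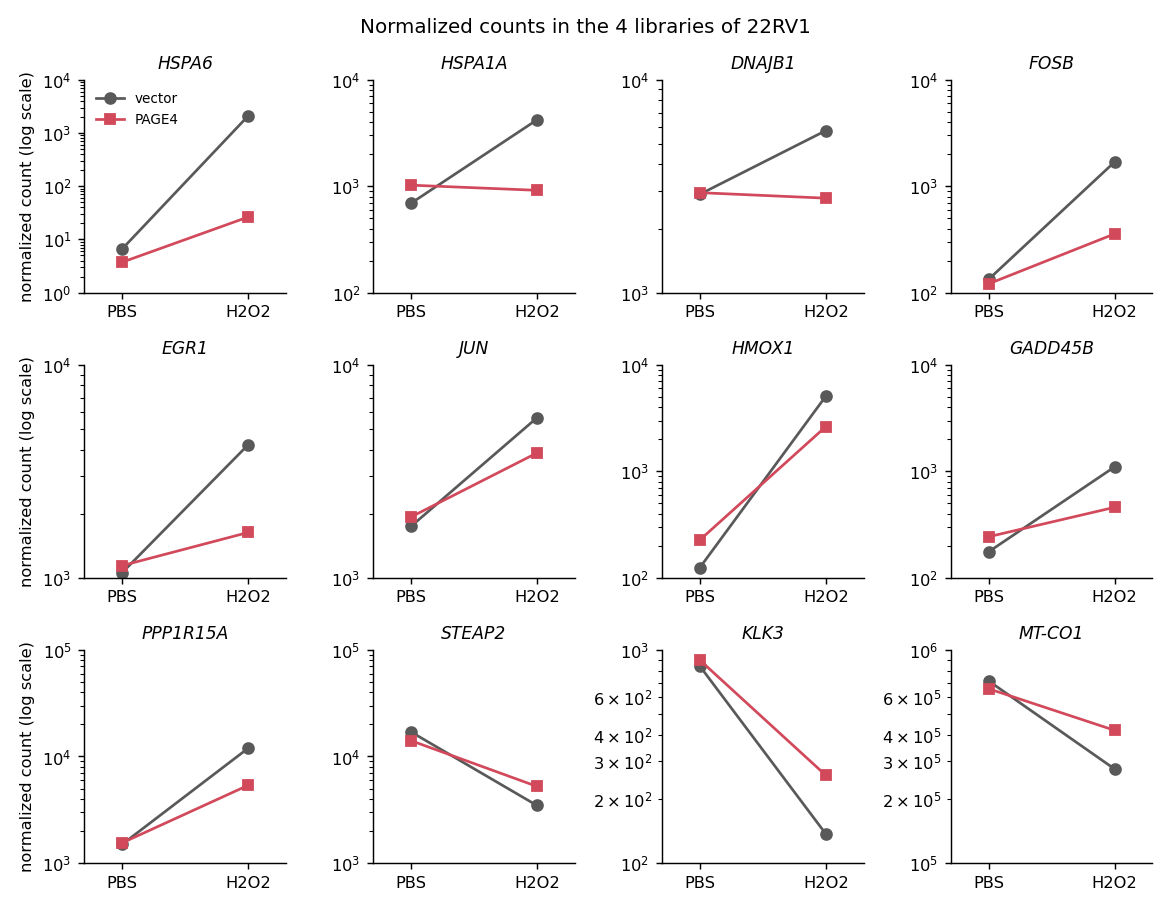
Normalized counts (log axis) of 12 genes in the 4 libraries of 22RV1, with PBS on the left and H2O2 on the right of each panel, circles for vector and squares for PAGE4 cells, 1 library per point. The 9 stress genes in the first panels start within 2-fold of each other in PBS and end higher in vector H2O2, while STEAP2, KLK3 and MT-CO1 end lower in vector H2O2.

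Immediate early genes gave the lowest median difference of the lists with more than 4 genes. Of the 32 tested, 17 had a difference over 1.5-fold lower and 1 higher, and 29 lay below 0. The median response was 1.23 with vector and 0.66 with PAGE4, with a median difference of -0.60. In PBS the median log2 ratio of PAGE4 to vector cells was 0.04, and in H2O2 it was -0.48, so the difference of this list lay in the treated libraries. After H2O2, 28 genes were over 1.5-fold higher in vector cells and 17 in PAGE4 cells.

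Among the AP-1 subunits, FOSB went from 134 to 1691 in vector cells and from 121 to 357 in PAGE4 cells, the lowest difference of the list at -2.10 (-2.48 to -1.72). FOS went from 292 to 2214 in vector cells and from 223 to 817 in PAGE4 cells, with a difference of -1.05 (-1.32 to -0.78). FOSL1, which encodes the late-acting subunit FRA1, went from 24.7 to 1219.7 in vector cells and from 12.1 to 222 in PAGE4 cells, a difference of -1.45 (-2.40 to -0.50). FOSL2 differed by -0.78 (-0.96 to -0.59). JUN, the subunit whose activity PAGE4 acts on, went from 1743 to 5641 in vector cells and from 1929 to 3856 in PAGE4 cells, a difference of -0.70 (-0.80 to -0.59). These 5 genes were higher after H2O2 in both constructs and highest in the vector H2O2 library, and the PBS levels of JUN and FOSL2 were close to each other between constructs. FOSL1 and FOS were lower in PAGE4 than in vector cells in PBS too.

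EGR1, a zinc finger factor switched on within minutes by ERK, went from 1056 to 4208 in vector cells and from 1141 to 1632 in PAGE4 cells, a difference of -1.48 (-1.62 to -1.33). Its PBS levels were close, and its treated level was higher in vector cells. EGR3 went from 50.3 to 536 in vector cells and from 29.8 to 157 in PAGE4 cells, with a difference of -1.03 (-1.70 to -0.35). EGR2 differed by -0.77 (-2.03 to 0.49), an interval that holds 0. The promoter of EGR1 is shown because it carries 2 serum response elements, the sites through which ERK and SRF act on this gene (RefSeq, GRCh38.p14, 250 bases before the start, matches in capitals).
EGR1, chr5:138465229-138465478, plus strand: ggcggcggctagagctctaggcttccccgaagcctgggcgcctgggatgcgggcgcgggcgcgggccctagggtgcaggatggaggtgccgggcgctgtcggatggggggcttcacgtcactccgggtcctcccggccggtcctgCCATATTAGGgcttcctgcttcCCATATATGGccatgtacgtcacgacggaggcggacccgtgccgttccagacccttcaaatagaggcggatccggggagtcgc
The matches started 105 and 83 bases before the start. A serum response element, which reads alike on both strands, stood before at least 1 start in 1.44% of all 27305 genes and in 3 of the 24 immediate early genes matched. Only 24 of the 32 tested could be matched, so the share in the list is void as a comparison.

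Other members followed. MAFF, a small MAF partner of AP-1 and NRF2, went from 290.1 to 1459.7 in vector cells and from 458 to 728 in PAGE4 cells, a difference of -1.66 (-1.90 to -1.42). IER5, an activator of HSF1, differed by -1.08 (-1.31 to -0.85), NR4A2, an orphan nuclear receptor, by -0.92 (-1.35 to -0.50), and CSRNP1, an AXIN1-induced factor, by -0.89 (-1.01 to -0.78). NFIL3, a clock-linked repressor, differed by -0.78 (-1.22 to -0.34). MCL1, the short-lived BCL2 relative in the list, went from 8469 to 17709 in vector cells and from 9854 to 12907 in PAGE4 cells, a difference of -0.67 (-0.73 to -0.62). The 2 members with the highest differences went the other way: KLF2 differed by 0.21 (-0.22 to 0.64), an interval that holds 0, and MYC went from 6747 to 2749.8 in vector cells and from 6978 to 4344 in PAGE4 cells, a difference of 0.61 (0.53 to 0.70). MYC was lower after H2O2 in both constructs and less so in PAGE4 cells. ARC, an immediate early gene of neurons that is not on the list, was among the 10 lowest differences of all genes, going from 45.3 to 667 in vector cells and from 85.7 to 238 in PAGE4 cells.

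Feedback and output genes of ERK and JNK signalling, which include phosphatases that end the signal and ligands that pass it on, had a median difference below 0 as well. Of 26 tested, 6 had a difference over 1.5-fold lower and 1 higher, and the median response was 1.09 with vector and 0.54 with PAGE4, with a median difference of -0.40. DUSP5, a nuclear ERK phosphatase, went from 20.6 to 328 in vector cells and from 28.9 to 117 in PAGE4 cells, a difference of -1.96 (-2.78 to -1.13). HBEGF, an EGFR ligand, went from 176 to 721 in vector cells and from 139.7 to 267 in PAGE4 cells, a difference of -1.10 (-1.48 to -0.73). DUSP14 differed by -0.60 (-0.80 to -0.40), PHLDA1, a pleckstrin-homology protein, by -0.80 (-1.09 to -0.50), and LIF, an IL6 family cytokine, by -0.71 (-1.18 to -0.23). AREG, another EGFR ligand, went from 67.6 to 411 in vector cells and from 21.4 to 236 in PAGE4 cells, and SPRY1, an inhibitor of receptor signalling, had a difference of 0.36 (-0.04 to 0.77). AREG started lower in PAGE4 cells, so its difference of 0.83 (0.13 to 1.54) came from the PBS libraries while its treated level was still higher in vector cells.

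The kinases of the pathway differed little as transcripts. Of 43 tested, 1 had a difference over 1.5-fold higher and 2 lower, shares below the background, with a median difference of -0.04. HIPK1 went from 4112 to 4769 in vector cells and from 3915 to 4134 in PAGE4 cells, a difference of -0.14 (-0.22 to -0.05). CLK2 differed by -0.21 (-0.30 to -0.11), and its relatives CLK4 and CLK1 had the lowest differences of the list at -0.76 (-1.07 to -0.45) and -0.67 (-0.81 to -0.53). CLK1 was over 2-fold higher after H2O2 in vector cells, going from 1147 to 2325 in vector cells and from 1453 to 1850.4 in PAGE4 cells. MAPK8 (JNK1) differed by 0.06 (-0.08 to 0.20), MAP2K4, which phosphorylates JNK, by -0.27 (-0.41 to -0.13), and MAPK3 (ERK1) by -0.26 (-0.41 to -0.11). ATF2, a JNK and p38 substrate, differed by 0.33 (0.09 to 0.57). MAP2K6, an activator of p38, had the highest difference of the list, going from 141 to 33.7 in vector cells and from 170.4 to 75 in PAGE4 cells, next to MAPK13 (p38 delta) at 0.53 (0.34 to 0.72). HIPK1, CLK2, MAPK8, MAP2K4, MAPK3 and ATF2, which were to be read whatever their values, all differed by less than 1.5-fold.

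Of the 11 MAPK cascade genes that the study picked from these libraries, only 4 had a mean of at least 50, and the choice was not independent of these data. BMP4, a TGF-beta family ligand, went from 14 to 44.4 in vector cells and from 109.9 to 69.8 in PAGE4 cells, a difference of -2.28 (-3.20 to -1.36). It was over 1.5-fold higher after H2O2 in vector cells and over 1.5-fold lower in PAGE4 cells, and the highest of its 4 levels was that of PAGE4 PBS. F2R, the thrombin receptor PAR1, went from 132 to 36.6 in vector cells and from 147 to 80.3 in PAGE4 cells, a difference of 0.96 (0.30 to 1.63). WNT5A went from 51.9 to 88.7 in vector cells and from 50.3 to 43.4 in PAGE4 cells, a difference of -0.98 (-1.75 to -0.20), and PELI2 differed by -0.10 (-1.02 to 0.82). The 7 others lay under a mean of 50.

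NRF2 targets were induced in both constructs. Of 38 tested, 21 were over 1.5-fold higher after H2O2 with vector and 15 with PAGE4, while 0 were lower in either. The medians were 0.62 and 0.52, with a median difference of -0.06, 2 genes over 1.5-fold higher and 4 lower. HMOX1, heme oxygenase 1, went from 124 to 5073 in vector cells and from 226 to 2629.5 in PAGE4 cells, a difference of -1.81 (-2.11 to -1.51). It was the most strongly induced member in vector cells, and both treated levels were far above both PBS levels. OSGIN1, a growth inhibitor, went from 294 to 2717 in vector cells and from 296 to 1559.5 in PAGE4 cells, a difference of -0.81 (-1.05 to -0.57), and TRIM16 differed by -0.60 (-0.85 to -0.34). SRXN1, the sulfiredoxin that restores peroxiredoxins, stood at the other end, going from 40.4 to 232 in vector cells and from 10.2 to 249 in PAGE4 cells, a difference of 2.03 (1.06 to 2.99). Its treated levels were close to each other and its PBS level was lower in PAGE4 cells. AKR1C2, an aldo-keto reductase with near-identical relatives, went from 399.7 to 906 in vector cells and from 313 to 1103 in PAGE4 cells, a difference of 0.64 (0.39 to 0.88).

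Enzymes that remove superoxide and peroxide responded little. Of 22 tested, 1 differed over 1.5-fold in each direction, and the median difference was -0.11. CAT, catalase, went from 2378 to 1458 in vector cells and from 2314 to 1745 in PAGE4 cells, a difference of 0.30 (0.17 to 0.43). GLRX, glutaredoxin, went from 169.8 to 65.6 in vector cells and from 120.1 to 89.5 in PAGE4 cells, a difference of 0.94 (0.37 to 1.52). GPX3 differed by -0.65 (-1.13 to -0.18) and GPX7 by -0.45 (-1.05 to 0.16). SOD1, the cytosolic superoxide dismutase, went from 4345 to 4938 in vector cells and from 4691 to 4733 in PAGE4 cells, a difference of -0.17 (-0.25 to -0.09).

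Metal-handling genes had 1 gene over 1.5-fold in each direction among 17 tested, with a median difference of 0.07. SLC30A1, a zinc exporter, went from 1033 to 3804 in vector cells and from 998 to 2025 in PAGE4 cells, a difference of -0.86 (-1.004 to -0.71), and MTF1, the zinc sensor that drives it, differed by -0.32 (-0.45 to -0.18). MT1X, a metallothionein with close relatives, went from 812 to 1617 in vector cells and from 325 to 1156 in PAGE4 cells, a difference of 0.83 (0.62 to 1.05). SLC40A1, the iron exporter ferroportin, differed by 0.56 (0.24 to 0.88). MT1X and SLC30A1 thus differed in opposite directions, and MT1X began lower in PAGE4 cells.

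Targets of p53 were induced in both constructs and more in vector cells. Of 37 tested, 33 were over 1.5-fold higher after H2O2 in vector cells and 32 in PAGE4 cells. The median response was 1.48 with vector and 1.19 with PAGE4, the median difference was -0.25, and 9 differed over 1.5-fold lower and 0 higher. In PBS the list stood higher in PAGE4 cells (median log2 0.23), and in H2O2 the constructs were level (-0.02). SERTAD1, a cell cycle co-activator, went from 343 to 2758 in vector cells and from 426 to 1346 in PAGE4 cells, a difference of -1.35 (-1.57 to -1.13). PLK2, a stress-induced polo kinase, went from 163 to 1507 in vector cells and from 185 to 750.2 in PAGE4 cells, a difference of -1.19 (-1.50 to -0.87). GADD45A, a growth arrest protein upstream of p38 and JNK, went from 440.1 to 4095 in vector cells and from 493 to 2707 in PAGE4 cells, a difference of -0.76 (-0.95 to -0.57), and its relative GADD45B, among the 10 lowest of all genes, went from 176 to 1102 in vector cells and from 243 to 459 in PAGE4 cells.

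BTG2, an antiproliferative factor, went from 433 to 4255 in vector cells and from 555 to 2988 in PAGE4 cells, a difference of -0.87 (-1.05 to -0.68). The death receptors FAS and TNFRSF10B differed by -0.71 (-0.97 to -0.45) and -0.60 (-0.68 to -0.52). FAS ended at nearly the same level in both constructs, going from 217 to 1231 in vector cells and from 344 to 1191 in PAGE4 cells. BBC3, the BH3-only protein PUMA, went from 529.9 to 2364 in vector cells and from 942 to 2648 in PAGE4 cells, ending higher in PAGE4 cells although its difference was -0.67 (-0.83 to -0.50). AEN, a nuclease, differed by -0.71 (-0.81 to -0.62), and PPM1D, the phosphatase that ends p53 signalling, by -0.61 (-0.76 to -0.46). TP53INP1, a p53 partner, had the highest difference of the list, going from 1384 to 2985 in vector cells and from 1106 to 3549.5 in PAGE4 cells, with 0.57 (0.44 to 0.70), next to SUSD6 at 0.14 (-0.05 to 0.32).

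In the BCL2 family and caspases, 3 of 32 differed over 1.5-fold lower and 0 higher, with a median difference of -0.12. PMAIP1, the BH3-only protein NOXA, went from 329.6 to 1031 in vector cells and from 414 to 645 in PAGE4 cells, a difference of -1.01 (-1.25 to -0.76). BNIP3, a mitophagy receptor, went from 1157 to 1384 in vector cells and from 1475 to 946 in PAGE4 cells, a difference of -0.90 (-1.06 to -0.73), higher after H2O2 in vector cells and lower in PAGE4 cells. CASP9, the initiator caspase of the mitochondrial route, differed by 0.41 (0.17 to 0.64), and BIK by 0.55 (0.16 to 0.94).

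Genes of the integrated stress response were induced in both. Of 39 tested, 21 were over 1.5-fold higher after H2O2 in vector cells and 15 in PAGE4 cells, with medians of 0.60 and 0.40 and a median difference of -0.22. The difference was over 1.5-fold lower in 7 and higher in 0. PPP1R15A, the GADD34 subunit that restarts translation, went from 1492 to 11923 in vector cells and from 1541 to 5352 in PAGE4 cells, a difference of -1.20 (-1.31 to -1.09). DDIT4, an mTORC1 inhibitor, went from 274 to 1339 in vector cells and from 414 to 1102 in PAGE4 cells, a difference of -0.88 (-1.11 to -0.64). SESN2, which binds leucine and restrains mTORC1, went from 1067 to 9519 in vector cells and from 933 to 4760.2 in PAGE4 cells, a difference of -0.81 (-0.94 to -0.68). GDF15, a secreted stress cytokine, was the most strongly induced member in both constructs, going from 1239 to 54507 in vector cells and from 1752 to 49565 in PAGE4 cells, a difference of -0.64 (-0.74 to -0.54). STC2 differed by -0.61 (-0.85 to -0.38), and ALDH1L2 and CTH were the highest of the list at 0.41 (0.33 to 0.50) and 0.35 (-0.003 to 0.70). PPP1R15A and SESN2 were level in PBS and lower in PAGE4 H2O2 than in vector H2O2, whereas GDF15 and STC2 were higher in PAGE4 PBS.

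Chaperones of the endoplasmic reticulum differed in 0 of 31 genes in either direction, with medians of -0.30 and -0.34. ERN1, the sensor IRE1, had the lowest difference at -0.53 (-0.70 to -0.36), then DNAJB9 at -0.44 (-0.64 to -0.24). SEC24D, a coat protein of vesicles leaving the reticulum, and DNAJC10 had the highest at 0.38 (0.25 to 0.51) and 0.35 (0.29 to 0.42).

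Androgen receptor targets and luminal genes were lower after H2O2 in both constructs, and less so in PAGE4 cells. Of 34 tested, 26 were over 1.5-fold lower with vector and 20 with PAGE4, and 0 were higher in either. The median response was -1.08 with vector and -0.73 with PAGE4. The median difference was 0.24, with 6 genes over 1.5-fold higher, 1 lower and 29 above 0. The constructs were close in PBS (median log2 0.07), and PAGE4 cells were higher in H2O2 (0.34). STEAP2, a metalloreductase, went from 17014 to 3467 in vector cells and from 14084 to 5234 in PAGE4 cells, a difference of 0.87 (0.79 to 0.94). KLK3, which encodes prostate-specific antigen, went from 841 to 137 in vector cells and from 897 to 258 in PAGE4 cells, a difference of 0.82 (0.48 to 1.15). The protease TMPRSS2 differed by 0.65 (0.36 to 0.93). In STEAP2, KLK3 and TMPRSS2 the vector H2O2 library was the lowest of the 4.

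MAF, a leucine zipper factor, had the highest difference of the list, going from 252 to 75.2 in vector cells and from 53.1 to 51.3 in PAGE4 cells, but its PAGE4 levels were low before and after. NDRG1 went against the list, going from 1586 to 2207 in vector cells and from 1964 to 1464 in PAGE4 cells, a difference of -0.90 (-1.04 to -0.76), and is a hypoxia gene as well as an androgen target. ACPP, prostatic acid phosphatase, differed by -0.47 (-1.06 to 0.12). The keratins KRT8 and KRT18 differed by -0.05 (-0.08 to -0.03) and -0.24 (-0.28 to -0.21).

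Mitosis genes were lower after H2O2 in both constructs. Of 62 mitosis genes, 57 were over 1.5-fold lower with vector and 58 with PAGE4, and the medians were -1.25 and -1.48. Here PAGE4 cells responded more, with a median difference of -0.27 and 53 genes below 0, although only 2 differed over 1.5-fold. CENPA, the centromeric histone, went from 360.1 to 112 in vector cells and from 357 to 55.3 in PAGE4 cells, a difference of -0.996 (-1.54 to -0.45), and PTTG1, securin, went from 2549 to 1230.3 in vector cells and from 2581 to 686 in PAGE4 cells, a difference of -0.86 (-1.03 to -0.70). BUB1B, a checkpoint kinase, and CKAP2 had the highest differences at 0.17 (0.04 to 0.29) and 0.15 (0.06 to 0.25). Of the 61 replication and G1/S genes, 20 were over 1.5-fold lower with vector and 29 with PAGE4. Their medians were -0.46 and -0.55, and 0 had a difference over 1.5-fold in either direction. ORC6 and DTL had the lowest differences at -0.49 (-0.63 to -0.35) and -0.47 (-0.57 to -0.37), and CCNE1 and RRM2, cyclin E1 and a ribonucleotide reductase subunit, the highest at 0.45 (0.04 to 0.87) and 0.31 (0.25 to 0.37).

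DNA repair genes differed little. In homologous recombination and Fanconi genes 1 of 48 differed over 1.5-fold, with a median difference of -0.06. That gene, RAD51B, went from 204 to 50.1 in vector cells and from 201 to 86.9 in PAGE4 cells, a difference of 0.81 (0.23 to 1.39). RAD51D followed at 0.37 (0.17 to 0.56), and HELQ and FANCE were lowest at -0.51 (-0.81 to -0.21) and -0.49 (-0.81 to -0.17). In base, nucleotide and mismatch repair 0 of 51 differed over 1.5-fold, with a median difference of 0.02. GTF2H2, a subunit of the repair and transcription factor TFIIH, differed by 0.46 (0.26 to 0.66), and PARP2 and DDB2 by -0.47 (-0.61 to -0.34) and -0.46 (-0.59 to -0.32). Only 14 of 32 replication-dependent histone genes had a mean of at least 50, and 1 differed higher and 3 lower. HIST1H4E differed by -0.89 (-1.66 to -0.12), HIST2H2AC by -0.76 (-1.41 to -0.10), HIST1H2AG by 0.51 (0.07 to 0.95) and HIST1H1E by 0.78 (0.10 to 1.45).

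Transcripts of the mitochondrial genome had the highest median difference of the lists. Of 13, 8 were over 1.5-fold lower after H2O2 in vector cells and 1 in PAGE4 cells, with medians of -0.91 and -0.35. The median difference was 0.47, and 4 were over 1.5-fold higher and 0 lower. MT-CO1, a cytochrome c oxidase subunit, went from 715360 to 275960 in vector cells and from 657600 to 419380 in PAGE4 cells, a difference of 0.73 (0.72 to 0.73). MT-CO2 and MT-CO3 differed by 0.67 (0.65 to 0.68) and 0.67 (0.65 to 0.68), and MT-ND6, the one subunit coded on the light strand, by 0.60 (0.57 to 0.62). All 4 were lowest in vector H2O2. MT-ND1 responded alike in both constructs at -0.06 (-0.07 to -0.04), and MT-ATP8, which overlaps MT-ATP6, was lowest of the list at -0.52 (-0.74 to -0.30). In PBS the list was lower in PAGE4 cells (median log2 -0.30).

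**Figure D3:**
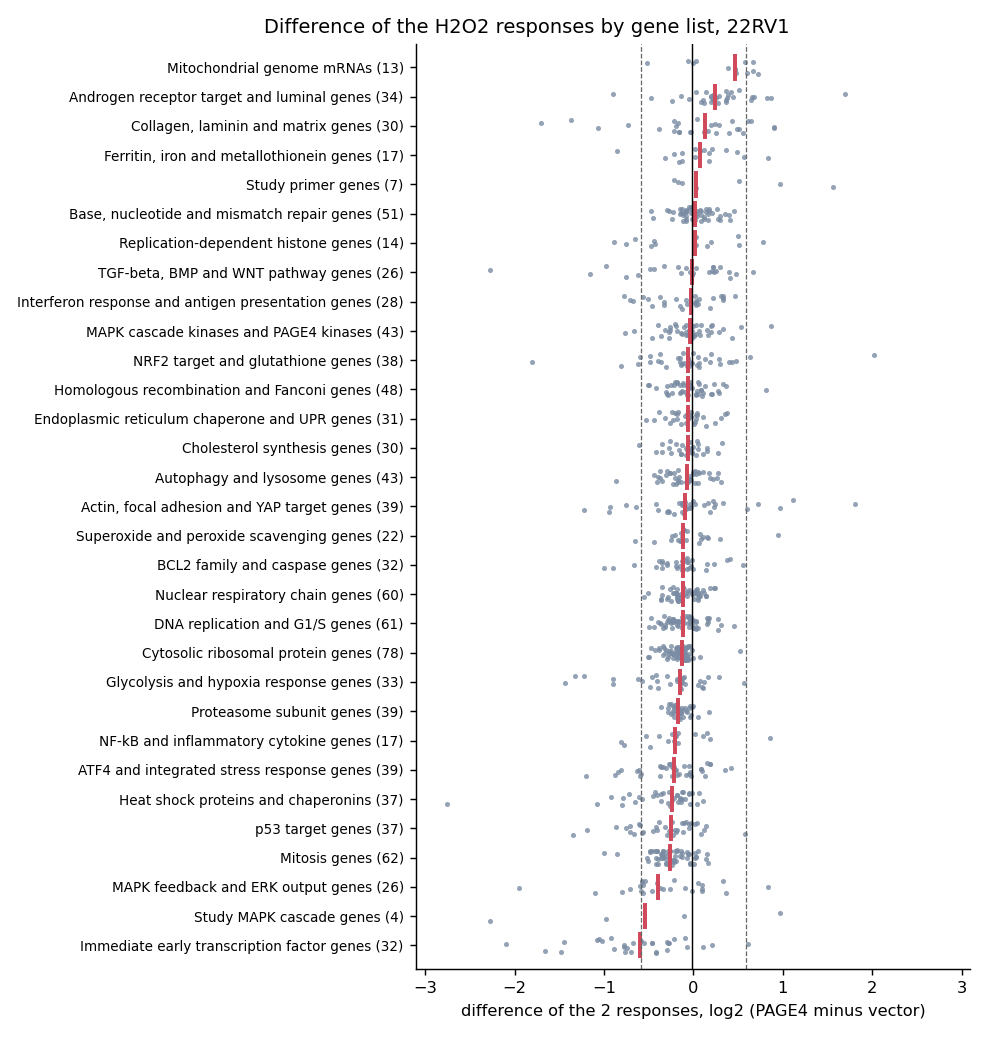
Difference of the 2 H2O2 responses (PAGE4 minus vector, log2) of each gene of 31 lists in 22RV1, with the number of genes tested in parentheses, points for genes and a thick red bar for the median. The solid line is the median of all genes (-0.01) and the dashed lines mark 1.5-fold. Immediate early genes lie lowest with a median of -0.60, and mitochondrial transcripts highest with 0.47.

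Ribosomal protein, proteasome and nuclear respiratory chain genes had small differences, mostly below 0. Of 78 ribosomal protein genes 76 lay below 0, with a median difference of -0.13 and 0 over 1.5-fold. RPL38 and RPS10 were lowest at -0.50 (-0.60 to -0.39) and -0.50 (-0.93 to -0.08), and RPL26 and RPL13 highest at 0.52 (0.31 to 0.74) and 0.08 (0.05 to 0.11). Most of these genes have processed pseudogene copies that can take their reads. Of 39 proteasome genes 37 lay below 0, with a median difference of -0.17 and 0 over 1.5-fold. PSMA6 and PSMD12 were lowest at -0.37 (-0.72 to -0.02) and -0.29 (-0.39 to -0.19), and PSMG2 and PSMG1 highest at 0.17 (-0.003 to 0.35) and 0.05 (-0.12 to 0.21). Of 60 nuclear respiratory chain genes 39 lay below 0, the median was -0.12, and NDUFA11 and NDUFA7 were lowest at -0.55 (-0.90 to -0.20) and -0.51 (-1.13 to 0.11), with NDUFS7 and NDUFS1 highest at 0.25 (0.11 to 0.39) and 0.23 (0.16 to 0.30).

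Glycolysis and hypoxia genes had 6 of 33 over 1.5-fold lower and 0 higher, with medians of 0.23 with vector and -0.15 with PAGE4. ADM, the vasodilator adrenomedullin, went from 153 to 1086 in vector cells and from 149.9 to 391 in PAGE4 cells, a difference of -1.44 (-1.80 to -1.09). EGLN3, a HIF prolyl hydroxylase, went from 46.1 to 136 in vector cells and from 42.8 to 50 in PAGE4 cells, a difference of -1.33 (-2.09 to -0.57). P4HA2, a collagen prolyl hydroxylase, and HIF1A itself were highest at 0.57 (0.27 to 0.86) and 0.29 (0.23 to 0.35). Cholesterol synthesis genes had 1 of 30 lower. NSDHL differed by -0.42 (-0.59 to -0.24), and SREBF1 and TM7SF2 were highest at 0.32 (0.26 to 0.38) and 0.27 (0.18 to 0.35). Autophagy and lysosome genes had 1 of 43 lower, GABARAPL1, an ATG8 relative, which went from 208 to 1118 in vector cells and from 264 to 778 in PAGE4 cells, a difference of -0.87 (-1.15 to -0.58). ATG4A, OPTN and LAMP2 differed by -0.44 (-0.61 to -0.27), 0.31 (-0.53 to 1.15) and 0.27 (0.17 to 0.37).

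In the lists of NF-kB and of interferon signalling, 18 genes each were below the count minimum. The NF-kB genes tested leaned below 0, and the interferon genes had a median difference of -0.03. Of 17 NF-kB genes tested of 35, 1 was higher and 2 lower, with a median difference of -0.21. TNFAIP2 and IRF1 differed by -0.81 (-1.09 to -0.54) and -0.78 (-1.25 to -0.31). PTGS2, cyclooxygenase 2, went from 42 to 79.1 in vector cells and from 41 to 139.5 in PAGE4 cells, a difference of 0.85 (0.14 to 1.56), and NFKBIE differed by 0.19 (-0.07 to 0.45). Of 28 interferon genes 3 were lower and 0 higher, among them IRF1 and IRF7, the latter at -0.67 (-0.91 to -0.44). TAP2 and IFITM3 were highest at 0.46 (0.15 to 0.77) and 0.33 (0.10 to 0.57).

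Genes of the cytoskeleton and matrix moved in both directions and often differed before treatment. Of 39 actin, adhesion and YAP genes 5 were higher and 5 lower. FLNA, given above, was lower after H2O2 in vector cells and differed by 1.11 (1.07 to 1.16). MYL9, a myosin light chain, went from 152 to 105 in vector cells and from 54.9 to 134 in PAGE4 cells, a difference of 1.81 (1.23 to 2.38), and THBS1, thrombospondin, went from 3635 to 1401 in vector cells and from 1864 to 1407 in PAGE4 cells, a difference of 0.97 (0.83 to 1.11). F3, tissue factor, differed by 0.60 (0.36 to 0.83). On the lower side, CYR61, a YAP target, went from 136 to 556 in vector cells and from 136 to 288 in PAGE4 cells, a difference of -0.95 (-1.34 to -0.56). ITGB4, AMOTL2 and ITGA5 differed by -1.22 (-2.07 to -0.38), -0.76 (-1.05 to -0.47) and -0.64 (-0.83 to -0.45). VIM, vimentin, a DU145 marker, went from 832 to 379.9 in vector cells and from 438 to 351 in PAGE4 cells, while CAV1 and LGALS1 differed by -0.13 (-0.77 to 0.52) and -0.06 (-0.16 to 0.03).

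Of 30 matrix genes 4 were higher and 4 lower. LAMB3, a laminin chain, went from 80.8 to 1073 in vector cells and from 115 to 588 in PAGE4 cells, a difference of -1.37 (-1.78 to -0.95), and PLAUR, the urokinase receptor, went from 153 to 144 in vector cells and from 207 to 59.2 in PAGE4 cells, a difference of -1.70 (-2.26 to -1.15). COL6A2 went from 302 to 324 in vector cells and from 10.2 to 21.1 in PAGE4 cells, a level in PAGE4 cells too low for its difference of 0.90 (-0.21 to 2.01) to leave out 0. COL4A2 and COL12A1 differed by 0.90 (0.29 to 1.52) and 0.65 (0.03 to 1.27). Of 26 TGF-beta, BMP and WNT genes 1 was higher, LGR5 at 0.66 (0.09 to 1.23), and 5 lower. INHBA, activin A, went from 30.5 to 414 in vector cells and from 35.4 to 215 in PAGE4 cells, a difference of -1.16 (-1.86 to -0.46), and WNT7B differed by -0.62 (-1.09 to -0.16). AXIN2, a WNT target, differed by 0.48 (-0.04 to 0.998). FBLN1, fibulin 1, whose level was also measured by PCR, differed by -0.21 (-0.66 to 0.23).

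**Figure D4:**
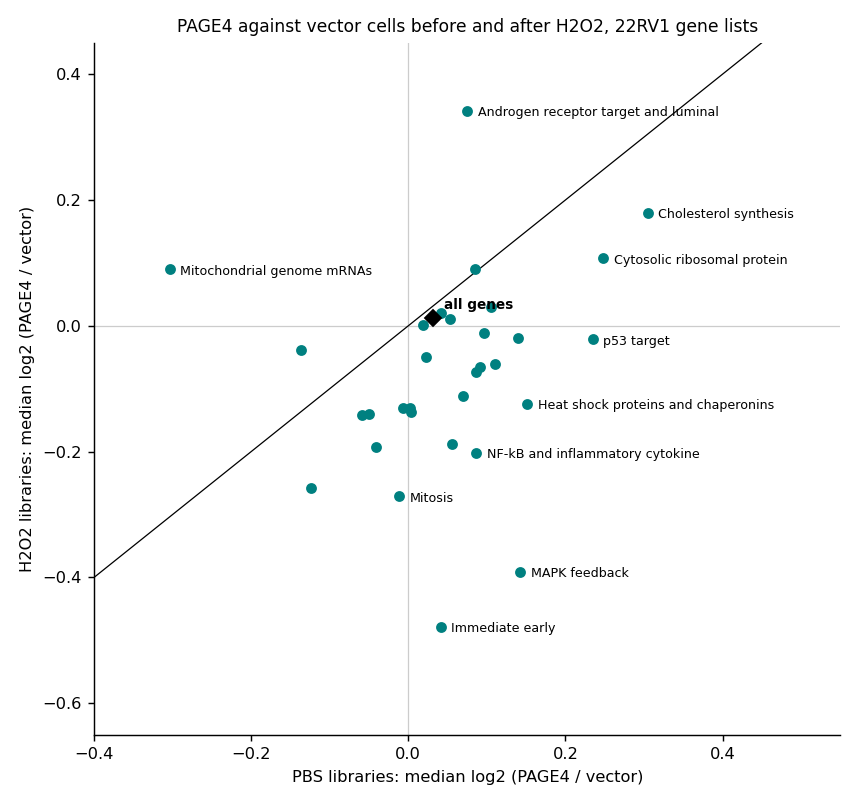
Median log2 ratio of PAGE4 over vector cells in the PBS libraries (horizontal) and in the H2O2 libraries (vertical) for each of 31 gene lists (circles) and for all genes (diamond), with the line of equal ratios. Immediate early genes sit at 0.04 and -0.48, p53 targets at 0.23 and -0.02, and androgen receptor targets at 0.07 and 0.34.

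The 10 lowest differences among genes with a mean of at least 200 were HSPA6, HSPA1A, ARC, FOSB, HMOX1, GADD45B, MAFF, RP5-1120P11.1, ZNF165 and KCTD12. All 10 were over 2-fold higher after H2O2 in vector cells. A high vector response lowers the difference, so this trait is partly built into the ranking. ZNF165, a zinc finger cancer/testis antigen, went from 181 to 370.2 in vector cells and from 201 to 138 in PAGE4 cells, a difference of -1.57 (-1.98 to -1.16). KCTD12, a GABA receptor subunit, went from 135 to 543 in vector cells and from 352 to 484 in PAGE4 cells, a difference of -1.54 (-1.87 to -1.22). RP5-1120P11.1, a noncoding gene, went from 171 to 342 in vector cells and from 314 to 208 in PAGE4 cells, higher after H2O2 in vector cells and lower in PAGE4 cells.

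The 10 highest differences were of another kind. GUCY1A2, a soluble guanylate cyclase subunit, went from 12316 to 4181 in vector cells and from 6192 to 6544 in PAGE4 cells, a difference of 1.64 (1.57 to 1.71). DOK6, a docking protein of the RET receptor, went from 4709 to 2205 in vector cells and from 1046 to 1458 in PAGE4 cells, a difference of 1.57 (1.44 to 1.71). RELN, the secreted glycoprotein reelin, went from 1614 to 805 in vector cells and from 382 to 569 in PAGE4 cells, a difference of 1.58 (1.35 to 1.80). HOXC8 went from 517 to 239 in vector cells and from 124 to 162 in PAGE4 cells, CLDN11, a tight junction protein, from 468 to 137 in vector cells and from 299.9 to 267 in PAGE4 cells, and FRMD5 from 324 to 139 in vector cells and from 207 to 246 in PAGE4 cells. In all 6 the vector PBS library was the highest of the 4, and PAGE4 cells started from a lower level. A high count in vector PBS raises the difference, so this too is partly built into the ranking. BICC1, an RNA-binding protein, went from 307 to 164 in vector cells and from 132 to 232 in PAGE4 cells, and ELMOD1 from 259 to 195 in vector cells and from 141 to 333 in PAGE4 cells. The other two were unnamed loci, AC099684.1, at from 1271 to 317 in vector cells and from 11.2 to 10.5 in PAGE4 cells, and FP236383.4, which went from 1901 to 299 in vector cells and from 163 to 395 in PAGE4 cells, a difference of 3.94 (3.62 to 4.26). FP236383.4 had no match in GENCODE 44, and a locus of that kind can share reads with repeated copies.

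Genes with a higher response in PAGE4 cells spanned more of the genome. Over 10180 protein-coding genes with a mean of at least 200 and a match in GENCODE 44, the median span from start to end was 34.7 kb, against 56.6 kb for 287 genes with a difference over 1.5-fold higher and 21.9 kb for 256 with one lower. In the 1018 longest genes, from 163 to 2305 kb, the median response was -0.20 in vector and -0.08 in PAGE4 cells, and 7.76% were over 1.5-fold higher against 1.57% lower. In the 1018 shortest 3.14% were higher and 4.62% lower. The median difference was -0.07 in the shortest and 0.09 in the longest, and in DU145 the same values were -0.05 and 0.05.

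In DU145 the constructs responded differently in fewer genes. Over 12322 genes with a mean of at least 50 in both lines, 356 had a difference over 1.5-fold higher in DU145 (2.89%) and 372 lower (3.02%). Across these genes the correlation of the differences of the 2 lines was -0.06, given as a description, since genes are not independent and all genes of a line share 4 libraries. Of the 504 genes over 1.5-fold higher in 22RV1, 41.9% lay above 0 in DU145, where 51.0% of all genes did, and of the 505 lower in 22RV1, 50.9% lay below 0, where 49.0% of all genes did. The median difference of the immediate early list was -0.004 in DU145 against -0.60 in 22RV1, that of heat shock genes 0.08 against -0.25, and that of p53 targets -0.01 against -0.25. MAPK feedback genes kept a median below 0 in DU145 (-0.19), as did ATF4 genes (-0.17 against -0.22). Mitosis genes lay on opposite sides of 0, at -0.27 in 22RV1 and 0.20 in DU145. The responses of these lists were unlike between the lines as well. For p53 targets the median vector response was 0.47 in DU145 against 1.48 in 22RV1. It was 0.84 against 1.23 for the immediate early list and 0.35 against 0.13 for heat shock genes. Whether the lines differ in these medians was not tested, since each has 1 library per condition.

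The series allows 1 test of a difference between the responses, the construct by treatment term shared by both lines, fitted with edgeR's quasi-likelihood test on all 8 libraries with 1 residual degree of freedom. It asks about both lines and not about 22RV1 alone. Of 22418 genes 43 passed an adjusted p of 0.05 (0.192%), 26 with a lower and 17 with a higher response in PAGE4 cells. An unadjusted p under 0.05 was found in 796, a share below the 0.05 that would pass if no gene differed. In this fit the spread of each gene was taken from the trend over genes, so a gene on which the lines disagree is not marked down for it, and each line's value is needed beside the p. The difference had the same direction in both lines in 38 of the 43 and was over 1.5-fold the same way in both in 15, of which 10 had a mean of at least 50 in both. DESeq2's Wald test called 3 genes on the same model, EIF5AP4, GUCY1A2 and FAM111B, so the calls depend on the tool.

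**Figure D5:**
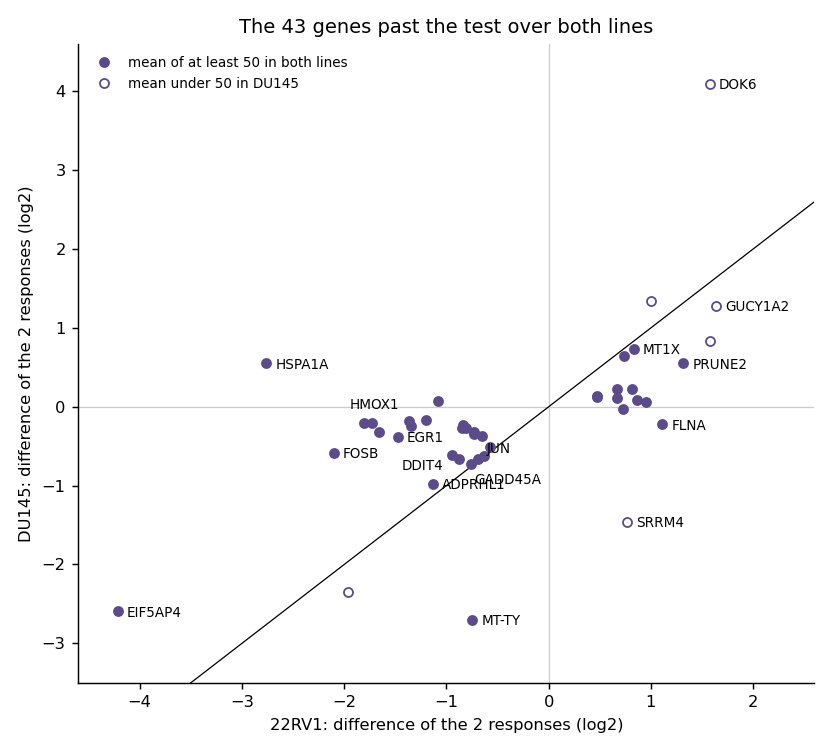
Difference of the 2 responses (PAGE4 minus vector, log2) in 22RV1 (horizontal) and DU145 (vertical) for the 43 genes past the test over both lines, filled where the mean was at least 50 in both lines, with the line of equal values. JUN, GADD45A, DDIT4 and MT1X lie near the line, while HSPA1A and FLNA lie on opposite sides of 0 in the 2 lines.

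Among the genes picked by this shared term, JUN and GADD45A gave like values in both lines. JUN differed by -0.70 in 22RV1 and -0.66 in DU145 (edgeR adjusted p = 0.00145), GADD45A by -0.76 and -0.73 (adjusted p = 0.00532), DDIT4 by -0.88 and -0.67 (adjusted p = 0.000301), CYR61 by -0.95 and -0.62 (adjusted p = 0.00475) and GDF15 by -0.64 and -0.62 (adjusted p = 0.00429). MT1X was higher in both, at 0.83 and 0.74 (edgeR adjusted p = 0.0247). EGR1 and FOSB passed with smaller values in DU145, EGR1 at -1.48 and -0.38 (edgeR adjusted p = 2.21e-08) and FOSB at -2.10 and -0.58 (adjusted p = 0.000321). HSPA1A passed too, although it differed by -2.76 in 22RV1 and 0.55 in DU145 (edgeR adjusted p = 2.13e-07). DNAJB1 differed by -1.08 and 0.08 (edgeR adjusted p = 0.0459). For these 2 heat shock genes the lower response with PAGE4 was seen in 22RV1 and not in DU145. JUN, GADD45A, DDIT4, CYR61, EGR1 and FOSB were among the 10 genes that also passed when the fit was limited to a mean of at least 50 in both lines, and HSPA1A, DNAJB1, GDF15 and MT1X were not. With DESeq2's Wald test neither these 6 nor these 4 passed, at adjusted p from 0.63 to 1. GUCY1A2 (edgeR adjusted p = 2.71e-15), DOK6 (2.09e-07) and RELN (0.00532) had a mean under 50 in DU145, so their p rests on 22RV1.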

How the data were processed

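RNA was sequenced from 22RV1 and DU145 cells, 1 library per condition. The deposited tables hold raw counts, which the authors made per gene with FeatureCounts 1.6.0 after aligning to GRCh38 in HISAT2 2.1.0. The strand setting and annotation release are not given in the sources used here. The members and the 31 gene lists and 3 marker lists were chosen with earlier results of these data known. Of 1193 symbols in the lists, 1192 were found. 26 symbols that a spreadsheet turned into dates stayed as written.

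Counts were divided by DESeq2 1.42.0 size factors of the 4 libraries of a line, with a pseudocount of 0.5. Intervals are 95% Wald intervals from the raw counts, and cover counting error only. Library totals limit precision: 25482984 counts in the smallest 22RV1 library. The test over both lines used edgeR 4.0.16 in R 4.3.3 with TMM, filterByExpr and Benjamini-Hochberg adjustment, and was tested on simulated data. Named genes were PAGE4, the 10 highest and 10 lowest differences (mean of at least 200, interval leaving out 0), the 2 highest and 2 lowest of each list with at least 5 genes, list members responding over 2-fold and differing over 1.5-fold, and 8 kinases and factors. Some genes that this rule names are not reported here. PELI2 was added after values were seen, to complete a short list. WNT5A, from the same list, also falls outside this rule. Spans are from GENCODE release 44 and promoters from RefSeq. Alternatives were TMM, total counts, other count minimums, a fold of 2, the interval rule, a pseudocount of 5, and other fits of the test. Python 3.11.15 with pandas 2.3.3, numpy 2.4.6 and matplotlib 3.10.9 did the rest.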

Additional observations from a re-analysis of the deposited data

Results flagged for a closer look

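In 4 named genes the 2 constructs responded over 1.5-fold in opposite directions in 22RV1, and these differences were not tested. The difference of the 2 responses was 3.94 for FP236383.4, 1.71 for BICC1, -1.60 for RP5-1120P11.1 and -2.28 for BMP4.

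The test of the construct by treatment term over both lines (edgeR's quasi-likelihood test, Benjamini-Hochberg adjustment) passed 43 genes, of which 25 are named genes. Those with a lower response in PAGE4 cells were EGR1 (adjusted p = 2.21e-08), HSPA1A (2.13e-07), HMOX1 (5.46e-05), PPP1R15A (9.11e-05), DDIT4 (0.000301), FOSB (0.000321), JUN (0.00145), MAFF (0.00296), GDF15 (0.00429), CYR61 (0.00475), GADD45A (0.00532), GADD45B (0.00532), SERTAD1 (0.0344), SESN2 (0.0349), LAMB3 (0.0353) and DNAJB1 (0.0459). Those with a higher response were GUCY1A2 (edgeR adjusted p = 2.71e-15), DOK6 (2.09e-07), MT-CO2 (3.84e-06), MT-CO1 (0.000301), MT-CO3 (0.000587), FLNA (0.000933), RELN (0.00532), STEAP2 (0.0245) and MT1X (0.0247). Limited to a mean of at least 50 in both lines, the fit kept 6 of the 25 (EGR1, DDIT4, JUN, FOSB, GADD45A and CYR61), did not test 3 (GUCY1A2, DOK6 and RELN) and gave the other 16 adjusted p-values from 0.0688 to 1. With DESeq2's Wald test GUCY1A2 alone of the 25 passed. Of the 25, HSPA1A, DNAJB1, FLNA and MT-CO1 differed in opposite directions in 22RV1 and DU145, by -2.76 and 0.55, -1.08 and 0.08, 1.11 and -0.22, and 0.73 and -0.03.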

How the results depend on the processing

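No paired analysis was possible because each condition has 1 library and the labels give no replicate numbers, and no library could be left out for the same reason. Counts of genes over 1.5-fold depend on the count minimum and the fold. With a mean of at least 10, 2813 genes had a higher and 2457 a lower response in PAGE4 cells, with a mean of at least 200 the counts were 360 and 285, with no minimum 10080 and 10674, and with a fold over 2 they were 298 and 219. Over all settings the share of higher among these genes ran from 48.6% with no minimum to 59.7% with total counts. The vector response gave 3594 higher and 3986 lower genes with a mean of at least 10, 1199 higher with at least 200, 10665 and 9710 with no minimum, and 682 and 964 with a fold over 2. The PAGE4 response gave 3009 and 3173, 676 and 1125, 8601 and 8739, and 492 and 561 under the same 4 settings. Low-count genes carry most of this rise, as the settings are built to add them. Scaling by TMM moved every difference by -0.001 and by total counts by 0.02. Total counts moved the median response of all genes from -0.04 to 0.07 in vector cells and from -0.02 to 0.10 in PAGE4 cells.

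Of 154 list medians taken relative to all genes under these settings, 153 moved by less than the spread and 1, the histone list, moved from 0.03 to -0.40 with a mean of at least 200. In all, 149 kept their direction and 5 changed it: that one, the interferon list (-0.02, against 0.02 with a mean of at least 10 and 0.05 with at least 200) and the TGF-beta, BMP and WNT list (-0.0006, against 0.006 and 0.03). A 4-gene list from the study, with a wide spread, went from -0.53 to -0.93 with TMM, total counts or a mean of at least 10. Of 564 values of 188 named genes, 560 stayed within their counting error and 4 moved, and none changed direction. The 4 were MT-CO1, MT-CO2, MT-CO3 and MT-ND1 under total counts. The test over both lines passed 43 genes, against 19 with DESeq2 size factors, 10 with a mean of at least 50 in both lines and 3 with DESeq2's Wald test, and the cause was not tested. With no filter it passed 33.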
